A study of Homo sapiens with 20 samples.

Results

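Nonsense-mediated decay (NMD) destroys transcripts whose translation ends too early, and the genes described here encode its core machinery. The 9 genes were taken by name as NMD factors, by a rule that used no measured value, although earlier results of these data were known when the list was drawn up: UPF1, UPF2, UPF3A, SMG1, SMG5, SMG6, SMG8, SMG9 and EIF4A3. All 9 had at least 1 deposited peak, among 19362 gene identifiers with a peak in the series. Individual-nucleotide-resolution crosslinking and immunoprecipitation (iCLIP) had been run for 3 splicing regulators, hnRNPA1, U2AF2 and SRSF1, to find where each contacts RNA when hnRNPA1 is raised. In overexpression cells, which carry an inducible T7-tagged hnRNP A1, there were 2 hnRNPA1, 3 U2AF2 and 3 SRSF1 libraries. Control cells, with endogenous hnRNP A1, gave the same numbers, so that 16 libraries were used. Both conditions used TREX FLP-In 293T cells, a derivative of the HEK293T human embryonic kidney line with a tetracycline-controlled integration site, and both received tetracycline for 24 h before harvest. Cells had been under drug selection for 3 days, with blasticidin in both, zeocin in control cells and hygromycin in inducible lines, so the second drug differed with the condition. iCLIP started from nuclear extracts, and the labels do not say how many clones the inducible lines represent or whether replicates were separate cultures. The p-values therefore measure the spread between these libraries, which may be technical.

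UPF1 is an RNA helicase that is recruited to a stalled terminating ribosome. UPF2 bridges it to UPF3A, which contacts the exon junction complex, a mark left on mRNA by splicing that has the helicase EIF4A3 at its core. SMG1 is the kinase that phosphorylates UPF1, SMG8 and SMG9 regulate that kinase, SMG5 binds phosphorylated UPF1, and SMG6 is the endonuclease that cuts the target. U2AF2 recognises the polypyrimidine tract ahead of 3' splice sites, hnRNPA1 often represses splicing, and SRSF1 is an SR protein that binds exonic enhancers and has itself been tied to NMD.

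Libraries differed widely in depth, and the direction differed between the proteins. Reads in peaks came to 549365 and 575471 in hnRNPA1 overexpression libraries, against 2973275 and 2508821 in control libraries. U2AF2 went the other way, with 2317615 to 3657197 reads in overexpression libraries and 702563 to 1158060 in control libraries. The SRSF1 immunoprecipitation gave the fewest reads, 175293 to 329448 in overexpression libraries and 125082 to 173766 in control libraries. No deposited peak held fewer than 6 reads, except in U2AF2 overexpression replicate 3, where the fewest was 3. That library also had 239020 peaks, against 111306 and 101723 in the other U2AF2 overexpression libraries, and its gene identifiers carry version numbers, so its processing may have differed. With peaks of at least 6 reads alone, UPF3A, UPF2 and SMG9 were still the 3 called U2AF2 genes, all lower, as were 2208 of all 12709. In that setting 54 of 66 tested U2AF2 sites were called, 44 higher and 10 lower. Over all genes 39035 of 56777 sites were called higher and 6993 lower. A gene or site without a peak may still have had some reads. Of 12 markers of blood, liver, fibroblast and neuronal cells, LYZ was the only one with a peak in 5 of the 6 groups, and U2AF2 overexpression libraries also had peaks on SNAP25 and SPI1. Summed over the list, these markers had 174.2 to 177.7 reads per 1000000 reads in peaks in U2AF2 overexpression libraries and 19.9 to 44.7 in U2AF2 control libraries, and their part in the U2AF2 results was not tested. On the HNRNPA1 transcript itself, the hnRNPA1 libraries had 540.9 and 673.1 normalised reads in overexpression cells and 522.4 and 524.5 in control cells, while the U2AF2 libraries had 33.8 to 73.0 in overexpression cells and 1173 to 1307 in control cells. These are contacts and give no level of the tagged protein.

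The peaks of each gene lay at the following places in the hg19 build, counted over the 16 libraries. UPF1 (ENSG00000005007) had 30 peaks within chr19:18944217-18977959 on the plus strand, and UPF2 (ENSG00000151461) had 112 within chr10:11964625-12083363 on the minus strand. UPF3A (ENSG00000169062) had 149 peaks within chr13:115047280-115066944 on the plus strand. SMG1 (ENSG00000157106) had the most, 427 within chr16:18816392-18937616 on the minus strand, and SMG8 (ENSG00000167447) a single one. SMG9 (ENSG00000105771) had 79 within chr19:44236657-44259030, SMG5 (ENSG00000198952) 118 within chr1:156219086-156252471, SMG6 (ENSG00000070366) 194 within chr17:1963486-2206503 and EIF4A3 (ENSG00000141543) 23 within chr17:78110068-78119580, all on the minus strand. None of these peaks overlapped a peak of another gene identifier on the same strand. Exon and intron positions were not used here, so sites are given by coordinates alone.

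In the U2AF2 immunoprecipitation, UPF3A, UPF2 and SMG9 carried less signal in overexpression cells than in control cells. Signal means the reads in peaks of a gene after scaling: each library was divided by its median ratio to the others, taken across the genes that had peaks in all libraries of that protein. The largest fall was at UPF3A, to 187.2 ± 23.8 normalised reads in overexpression cells, against 699.5 ± 172.5 in control cells (SD, n = 3 each). SMG6 was the one tested gene with a positive log2 change under this scaling. The remaining genes did not pass the test. iCLIP signal rises with the amount of a transcript as well as with its contact by the protein, and these could not be told apart here, since no RNA level per gene was analysed.

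UPF3A had 212.5, 183.9 and 165.3 normalised U2AF2 reads in overexpression libraries 1 to 3, against 508.7, 844.5 and 745.3 in control libraries. Every control library was above every overexpression library. The log2 change was -1.87 ± 0.22 (SE; adjusted p = 0.00107, limma with Benjamini-Hochberg adjustment over 13007 genes). UPF2, the bridging factor, had 47.5, 40.1 and 52.4 normalised reads in overexpression libraries, against 107.0, 203.8 and 76.4 in control libraries. Its groups did not overlap either, but the control libraries spread more widely, and the log2 change was -1.34 ± 0.39 (adjusted p = 0.0375 by limma). SMG9, a regulator of the SMG1 kinase, had 47.5, 57.4 and 50.2 normalised reads in overexpression libraries, against 95.4, 95.3 and 86.6 in control libraries. Here both groups were tight and apart, and the log2 change was -0.83 ± 0.18 (adjusted p = 0.0133 by limma).

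These 3 of the 8 tested genes were read against a background in which 43.5% of all 13007 genes were called, 16.0% as lower and 27.5% as higher. Across all genes the median log2 change stood at 0.76, and that of the 8 NMD genes was -0.69. With total reads in peaks as the scale the median of all genes moved to 1.49, and the median of the NMD genes to -0.04. Relative to the median of all genes, UPF3A was at -2.63 in the size-factor scaling and -2.56 in the total-read scaling, UPF2 at -2.10 and -2.03, and SMG9 at -1.59 and -1.52. With quantile normalization these offsets were smaller, -1.54 for UPF3A, -1.58 for UPF2 and -1.14 for SMG9. The offset also depended on genes that lacked peaks in some libraries. Over the 6829 genes whose U2AF2 peaks were found in all 6 libraries, the median was 0.02. The 7 NMD genes of that kind had a median of -0.83. Between the size-factor and total-read scalings, the unshifted log2 changes differed more than these offsets did. With total reads UPF3A remained called at -1.07 (adjusted p = 0.00879 by limma), UPF2 was at -0.54 and SMG9 at -0.04, neither called, and SMG6 was called as higher at 1.07. On that scale 52.7% of all genes were called, 42.1% as higher and 10.5% as lower. SMG9 had 111, 113 and 161 unscaled reads in 11, 13 and 18 peaks in overexpression libraries, against 33, 36 and 51 reads in 4, 3 and 3 peaks in control libraries, and its scaled change in the number of peaks was 0.27 (log2, not called). UPF2 was at 0.69, not called, when only peaks of at least 12 reads were counted. UPF2 was no longer called without control replicate 1 (adjusted p = 0.0587), or without overexpression replicate 1 (0.105), 2 (0.128) or 3 (0.0721), all by limma. SMG9 was no longer called without overexpression replicate 1 (adjusted p = 0.155), 2 (0.108) or 3 (0.0932) by limma, while UPF3A was called in all 6 such fits.

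**Figure D1:**
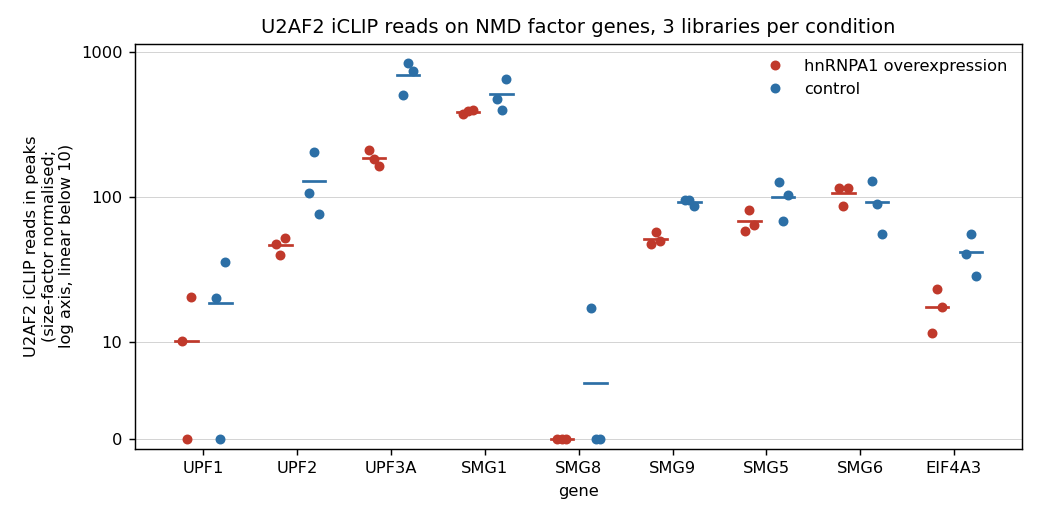
Normalised U2AF2 iCLIP reads in peaks (vertical axis, log scale, linear below 10) on each of the 9 genes. Points are libraries and bars are means of 3 libraries per condition. The UPF3A overexpression libraries lie at 165.3 to 212.5 normalised reads and the control libraries at 508.7 to 844.5, and the groups also stay apart at UPF2 and SMG9.

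The kinase gene SMG1 had the most U2AF2 reads of the 9 genes in overexpression cells, with 372.9, 393.7 and 398.2 normalised reads, against 476.9, 402.4 and 653.6 in control libraries. Its log2 change of -0.37 ± 0.19 was not called (adjusted p = 0.176 by limma) and turned positive, to 0.44, with total reads as the scale and to 0.34 with quantile normalization. SMG1 needs care for another reason: 7 identifiers named as SMG1 pseudogenes also had peaks. Over the U2AF2 libraries they held 30269 reads in overexpression cells and 11823 in control cells, against 2924 and 702 on SMG1 itself, and how reads were divided between these copies is not given in the sources used here. No peak was listed on a pseudogene of UPF3A or EIF4A3. SMG5 had 58.6, 82.3 and 64.9 normalised reads in overexpression libraries, against 127.2, 68.8 and 103.6 in control libraries, and these groups overlapped. Its log2 change was -0.51 ± 0.29 (adjusted p = 0.204 by limma), 0.29 with total reads as the scale, and -0.80 and called without control replicate 2 (adjusted p = 0.0397 by limma). The endonuclease gene SMG6 had 115.9, 87.4 and 116.3 normalised reads in overexpression libraries, against 130.1, 90.0 and 56.0 in control libraries. These groups overlapped as well, with a log2 change of 0.28 ± 0.34 (adjusted p = 0.537 by limma). When only peaks of at least 12 reads were counted, SMG6 was called as higher at 4.82 (adjusted p = 0.000285 by limma). Control libraries 1 and 2 had 45 SMG6 reads in 7 peaks and 34 in 5, each peak with at least 6 reads. None of these peaks can have held 12, so both libraries counted as 0 and the size depends on the pseudocount. In that setting 4259 of 9773 genes were called higher and the median of all genes was 2.26.

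EIF4A3, the exon junction helicase, had 11.5, 23.4 and 17.5 normalised U2AF2 reads in overexpression libraries, against 40.5, 55.6 and 28.9 in control libraries. The groups did not overlap, yet the log2 change of -1.21 ± 0.48 missed the threshold (adjusted p = 0.0938 by limma). When only the 6829 genes with a U2AF2 peak in all 6 libraries were tested, EIF4A3 was also called (adjusted p = 0.0304 by limma), in a background of 59.3% of genes. The helicase gene UPF1 was close to the detection limit, with 24, 0 and 66 reads in peaks in overexpression libraries, against 7, 0 and 21 in control libraries. Its log2 change was -0.56 ± 1.82 (adjusted p = 0.826 by limma). SMG8 had a single peak of 6 reads, in U2AF2 control replicate 1, at chr17:57289330-57289455 on the plus strand (hg19), and was not tested.

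U2AF2 peaks on these genes often lay at different positions in overexpression and control cells, as they did over all genes. Peaks that overlapped by at least 1 nt within a gene were joined across the libraries of a protein and are called sites. The 9 genes held 394 U2AF2 sites, of which 133 had a peak in at least 2 overexpression libraries and 29 in at least 2 control libraries. Of the 133, 119 had no peak in any control library (89.5%, against 83.4% of such sites over all genes). Of the 29, 20 had no peak in any overexpression library (69.0%, against 50.2% over all genes), although the overexpression libraries were the deeper ones. Only 3 of the 394 sites had a peak in all 6 libraries, 2 in UPF3A and 1 in EIF4A3. Of 72 sites that had peaks in 3 or more libraries, the test called 50 higher and 10 lower, against 80.8% called over all 60908 sites, where 69.3% were called higher and 11.5% lower. Sites with peaks in 3 libraries of 1 condition alone had to differ, so those calls carry little beyond the peaks themselves, and the shares called in the 9 genes were close to those over all genes. Without any 1 of the overexpression libraries, sites found in overexpression cells alone had too few peaks to be tested, and 10 sites were called.

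On UPF3A most U2AF2 reads lay within a short stretch. Sites that began within 5 kb of the first peak held 441 of 497, 339 of 362 and 472 of 530 of its U2AF2 reads in overexpression libraries and 176 of 176, 304 of 319 and 415 of 439 in control libraries. Beside the leading site and the 3 with the largest changes, the UPF3A sites given here were chosen after their values were seen. The strongest site, chr13:115048686-115049189, was present in all 6 libraries with 132, 122 and 139 reads in overexpression libraries and 50, 79 and 65 in the shallower control libraries. Its neighbour chr13:115048388-115048576 had 73, 39 and 76 reads in overexpression libraries and 32, 30 and 45 in control libraries. After scaling, both were lower in overexpression cells, with log2 changes of -1.47 ± 0.29 (adjusted p = 0.00405) and -1.71 ± 0.25 (adjusted p = 0.00110, both by limma). With total reads as the scale the change at the first of them was -0.67 and not called (adjusted p = 0.0583 by limma).

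Other U2AF2 contacts on UPF3A were seen in 1 condition. A pair of sites further into the gene had no peak in any overexpression library: chr13:115051123-115051470, with 14, 39 and 72 reads in control libraries, and chr13:115051548-115051769, with 8, 36 and 39. Upstream, peaks in control cells alone were also found at chr13:115048091-115048259, with 22, 28 and 36 control reads, and at chr13:115048291-115048363, with 21, 19 and 35. Elsewhere on UPF3A, 5 sites had peaks in every overexpression library and in no control library, and 3 of them lay between these places. They were chr13:115049756-115049832 with 48, 30 and 36 reads, chr13:115050125-115050182 with 16, 8 and 17, and chr13:115050329-115050433 with 38, 34 and 26. Within UPF3A, 7 of the 12 repeated control sites had no overexpression peak (58.3%, against 50.2% over all genes), and 7 of the 13 repeated overexpression sites had no control peak (53.8%, against 83.4% over all genes).

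**Figure D2:**
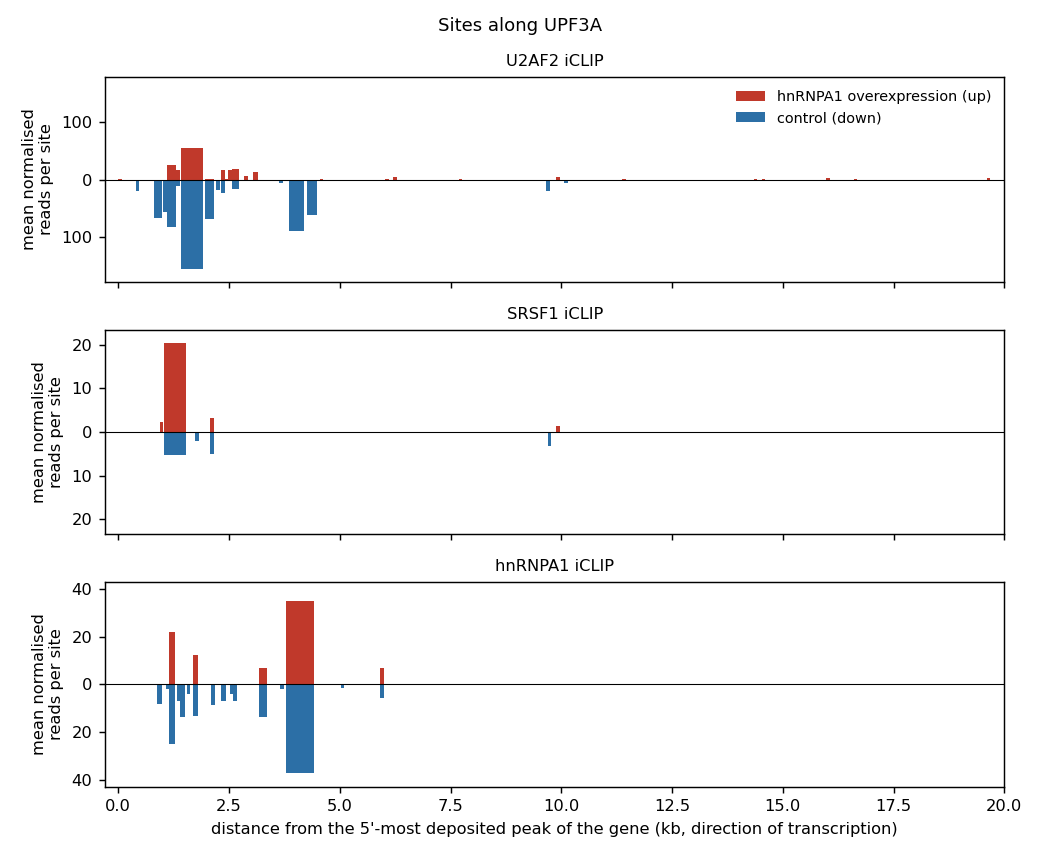
Sites along UPF3A for the 3 proteins, by distance from its first deposited peak (horizontal axis, kb). Bars give mean normalised reads per site, upward for overexpression cells and downward for control cells, with 3 libraries per condition for U2AF2 and SRSF1 and 2 for hnRNPA1. The U2AF2 bars near 4 kb appear in control cells alone, while the hnRNPA1 bar at the same place appears in both conditions.

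The hnRNPA1 libraries marked the same stretch of UPF3A. The site chr13:115051072-115051689, which overlaps both of the distal U2AF2 sites found in control cells alone, had 7 and 24 hnRNPA1 reads in overexpression libraries and 84 and 93 in the deeper control libraries. After scaling no difference was called (log2 change -0.30 ± 0.72, adjusted p = 0.826 by limma). The overexpression libraries were far apart: the change was 0.59 without overexpression replicate 1, and -1.11 and called without overexpression replicate 2 (adjusted p = 0.0442). At chr13:115048150-115048260, which overlaps a U2AF2 site seen in control cells alone, hnRNPA1 also had peaks in control cells alone, with 21 and 19 reads. The same was true of chr13:115048680-115048776, with 28 and 37 control reads, and chr13:115049378-115049470, with 22 and 20. Of the 12 U2AF2 sites that UPF3A had in at least 2 control libraries, 8 overlapped an hnRNPA1 site seen in both control libraries (66.7%).

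Over the 9 genes, 11 of the 29 repeated U2AF2 sites in control cells overlapped a repeated hnRNPA1 site in control cells (37.9%, against 46.3% over all genes). In overexpression cells it was 3 of 133 (2.26%, against 2.50% over all genes), where the hnRNPA1 libraries were shallower. Set against the deeper hnRNPA1 control sites instead, 13 of the 133 overexpression U2AF2 sites overlapped (9.77%, against 16.9% over all genes). The share was thus smaller for overexpression sites in both settings, for the 9 genes and for all genes, and was not tested. The U2AF2 libraries also differed in depth. The deeper overexpression libraries gave 96660 repeated sites over all genes, against 23667 in control libraries, and what this does to the share was not tested.

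SMG9 had U2AF2 peaks at different places in the 2 conditions. Its leading control site, chr19:44239817-44239938 on the minus strand, had 10, 21 and 12 reads in control libraries and no peak in overexpression libraries. In the hnRNPA1 libraries the overlapping site chr19:44239839-44239977 also had peaks in control cells alone, with 41 and 37 reads. U2AF2 peaks in all 3 overexpression libraries and no control library lay at 7 sites, led by chr19:44241134-44241246 with 15, 16 and 16 reads and chr19:44248180-44248261 with 21, 13 and 12. In all, 10 of 10 SMG9 sites repeated in overexpression libraries had no control peak, against 83.4% of such sites over all genes. The 2 of 2 repeated in control libraries had no overexpression peak, against 50.2% over all genes, and none was repeated in both.

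**Figure D3:**
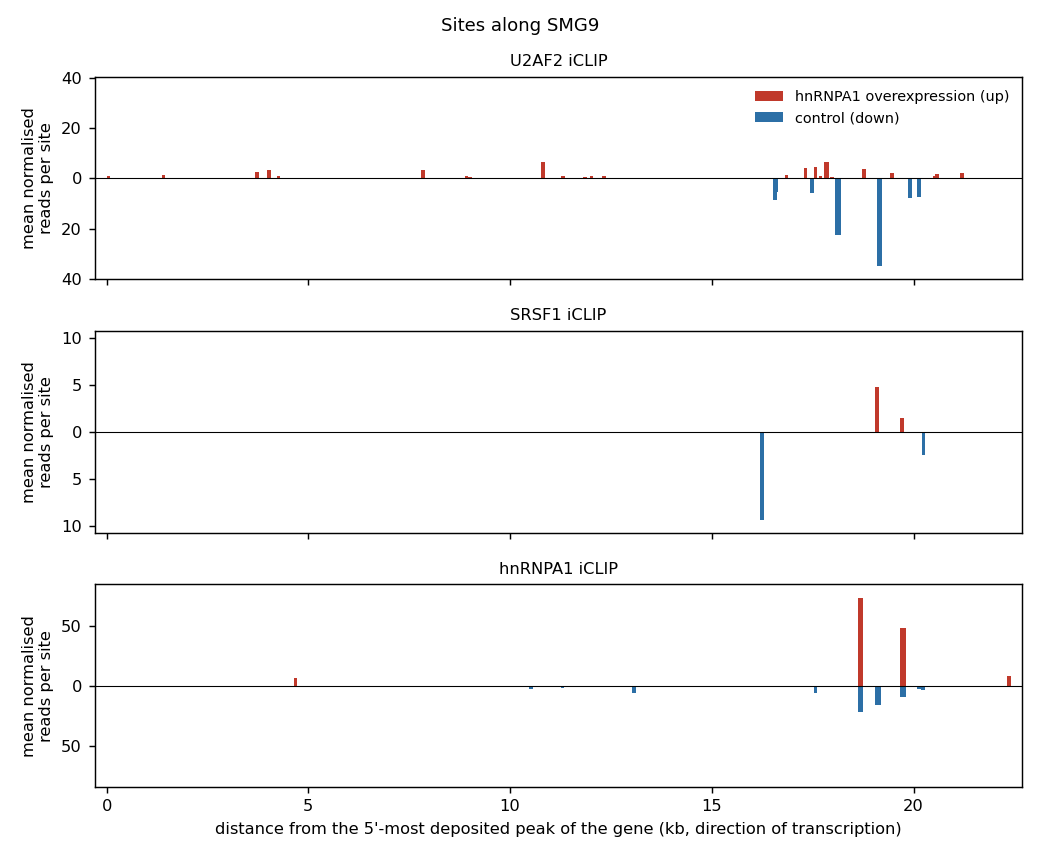
Sites along SMG9 for the 3 proteins, by distance from its 5'-most deposited peak in the direction of transcription (kb). Bars give mean normalised reads per site, upward for overexpression cells and downward for control cells. The tallest U2AF2 control bar has no overexpression counterpart, and the tallest hnRNPA1 bar, with 30 and 34 reads in overexpression libraries and 55 and 51 in control libraries, is present in both conditions.

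The leading U2AF2 site of SMG1 was chr16:18819094-18819387 on the minus strand, with 170, 153 and 215 reads in overexpression libraries and no peak in control libraries. Another, chr16:18871410-18871464, had 50, 37 and 71 reads in overexpression libraries alone. In contrast, chr16:18879858-18879955 had 6, 0 and 0 reads in overexpression libraries, against 13, 19 and 22 in control libraries. SRSF1 had its leading SMG1 site at that place, chr16:18879854-18879971, with 10, 16 and 22 reads in overexpression libraries and 16, 0 and 15 in control libraries. The pseudogene caution applies to each of these sites, and to all SRSF1 and hnRNPA1 values of SMG1. In SRSF1 the pseudogenes held 4029 reads in overexpression cells and 2025 in control cells, against 351 and 151 on SMG1. In hnRNPA1 they held 4486 and 18920, against 330 and 2352.

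EIF4A3 kept its main U2AF2 site, chr17:78115326-78115539 on the minus strand, with 19, 18 and 7 reads in overexpression libraries and 8, 21 and 17 in control libraries. Given the depth difference this was a fall (log2 change -2.37 ± 0.61, adjusted p = 0.0131 by limma). A second site, chr17:78110068-78110119, had 8, 8 and 15 reads in overexpression libraries alone. SMG5 lost the peaks at its leading control site, chr1:156244031-156244234 on the minus strand, which had 0, 19 and 25 reads in control libraries. SMG5 peaks in every overexpression library and no control library were led by chr1:156243517-156243654 with 20, 13 and 15 reads, chr1:156226719-156226783 with 18, 10 and 8, and chr1:156241984-156242049 with 9, 12 and 8.

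SMG6 spread its U2AF2 reads over many small sites, 78 in all. The leading one, chr17:2072350-2072461 on the minus strand, had 22, 6 and 21 reads in overexpression libraries and 0, 6 and 9 in control libraries. Sites seen in all overexpression libraries and no control library included chr17:2016049-2016117 with 17, 14 and 29 reads, chr17:2010117-2010195 with 14, 14 and 18, and chr17:2066122-2066205 with 14, 9 and 23. UPF2 had 51 U2AF2 sites. Its leading site, chr10:11992015-11992054 on the minus strand, had 10, 0 and 10 reads in control libraries and none in overexpression libraries, and chr10:11980867-11980917 had 6, 10 and 4 reads in overexpression libraries and none in control libraries. UPF1 had 13 sites, with the highest mean at chr19:18977855-18977959 on the plus strand, where 1 overexpression library had 3 reads and 1 control library had 12.

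SRSF1 contacts were sparse on these genes. SMG6 had 14, 19 and 12 SRSF1 reads in peaks in overexpression libraries, against 0, 0 and 0 in control libraries. The peaks, 2 in each overexpression library, came to 12.2 ± 3.2 normalised reads (SD, n = 3). The fitted log2 change of 3.69 ± 0.67 (adjusted p = 0.0256, limma over 5598 genes) depends on the pseudocount of 1 and is no bound, because no control library listed a peak: with a pseudocount of 5 it was 1.76 and not called (adjusted p = 0.0629). SMG6 entered the test only through its overexpression libraries, so that its call is largely fixed by the filter and is given as a description. It was the 1 call among 5 tested genes, in a background of 8.32% called, 6.38% as higher and 1.95% as lower. The call was also lost with quantile normalization (adjusted p = 0.106) and with no filter (0.154), and without SRSF1 control replicate 2 (adjusted p = 0.0747) or 3 (0.0708, both by limma), and SMG6 could not be tested without any 1 of the overexpression libraries.

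These SMG6 reads fell on 4 sites, and 2 of them lay close together near the 5' end of its span of peaks. The site chr17:2203448-2203615 had 8, 12 and 0 SRSF1 reads in overexpression libraries and chr17:2203022-2203104 had 6, 0 and 6. SMG9 had the one called SRSF1 site among 10 tested in the 9 genes, chr19:44242805-44242836, with 9, 6 and 9 reads in control libraries and no peak in overexpression libraries, against 17.5% of 7967 sites called over all genes, 11.5% as higher and 6.04% as lower. It was not called without any 1 of the overexpression libraries (adjusted p between 0.101 and 0.134 by limma) and no longer entered the test without any 1 of the control libraries. As a gene, SMG9 had 8.8, 5.8 and 4.5 normalised SRSF1 reads in overexpression libraries and 15.9, 10.0 and 9.7 in control libraries (log2 change -0.82 ± 0.65, adjusted p = 0.579 by limma).

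The other genes gave no SRSF1 call in this fit. When only peaks of at least 12 reads were counted, UPF3A was called as higher at 4.21 (adjusted p = 0.00606 by limma). Its control libraries had 23 reads in 3 peaks, 6 in 1 and 15 in 2, each peak with at least 6 reads. No control peak can thus have held 12, and UPF3A entered that fit only through overexpression libraries. That call is largely fixed by the filter, and its size is no bound. In that setting 279 of 1966 genes were called higher. SMG1 had 84.4, 130.6 and 52.7 normalised SRSF1 reads in overexpression libraries, against 45.9, 53.3 and 75.7 in control libraries (log2 change 0.54 ± 0.39, adjusted p = 0.530 by limma). UPF3A had 21.9, 13.4 and 45.9 normalised reads in overexpression libraries, against 21.5, 10.0 and 16.2 in control libraries (log2 change 0.62 ± 0.57, adjusted p = 0.617 by limma). Its leading site, chr13:115048310-115048812, overlaps both of the U2AF2 sites present in all U2AF2 libraries, and had 14, 0 and 61 reads in overexpression libraries and 17, 0 and 0 in control libraries. SMG5 had 18.6, 17.3 and 27.1 normalised reads in overexpression libraries, against 6.6, 51.6 and 27.0 in control libraries (log2 change -0.05 ± 0.74, adjusted p = 0.981 by limma). Its leading site, chr1:156243146-156243252, had 18 reads in control replicate 2 and no other peak. UPF1 had 6 reads in each of overexpression replicates 1 and 2, at chr19:18977884-18977949, and none in control libraries. UPF2 had none in overexpression libraries and 7 and 8 reads in control replicates 1 and 2, the larger at chr10:11994069-11994109. EIF4A3 and SMG8 had no SRSF1 peak.

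In the hnRNPA1 immunoprecipitation, 0 of 8 tested genes passed the threshold by limma, and 3 had an unadjusted p under 0.05. Over all 12461 tested genes 38.4% were called, 34.1% as lower and 4.31% as higher. The median log2 change was -1.62, against -0.41 over the 8 NMD genes. This gap was not kept among genes with a peak in every hnRNPA1 library. Their medians were 0.008 over all 5738 genes and -0.15 over 6 NMD genes. With quantile normalization the medians were 0.08 over all genes and -0.03 over the NMD genes. SMG9 had 139.4 and 133.7 normalised hnRNPA1 reads in overexpression cells, against 82.9 and 59.6 in control cells. These groups did not overlap, but the log2 change of 0.95 ± 0.24 missed the threshold (adjusted p = 0.0638 by limma). EIF4A3 had 14.2 and 13.4 normalised reads in overexpression libraries, against 5.9 and 7.2 in control libraries (log2 change 0.97 ± 0.43, adjusted p = 0.194 by limma). It rested on 1 peak of 6 reads in each overexpression library.

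Where a fit leaves out 1 of the 2 hnRNPA1 libraries of a condition, the remaining one is assumed to vary like the other condition. UPF3A had 70.9 and 95.8 normalised hnRNPA1 reads in overexpression libraries, against 139.6 and 181.6 in control libraries (log2 change -0.94 ± 0.27, adjusted p = 0.0817 by limma). It was called without overexpression replicate 2 (log2 change -1.14, adjusted p = 0.0327 by limma). SMG1 had 406.3 and 352.2 normalised reads in overexpression libraries, against 490.3 and 496.1 in control libraries (log2 change -0.38 ± 0.11, adjusted p = 0.0932), and was called with total reads as the scale (log2 change -0.55, adjusted p = 0.0377, both by limma). SMG6 had 99.2 and 102.5 normalised reads in overexpression libraries, against 144.3 and 128.8 in control libraries (log2 change -0.43 ± 0.15, adjusted p = 0.130 by limma). SMG5 was nearly level, with 68.5 and 82.5 in overexpression libraries and 67.3 and 75.0 in control libraries. UPF2 had 47.2 and 0 normalised reads in overexpression libraries, against 56.3 and 87.6 in control libraries, and its log2 change of -3.36 ± 2.26 (adjusted p = 0.337) was -6.55 and called without overexpression replicate 1 (adjusted p = 0.00504, both by limma). That fit has 1 overexpression library, with no UPF2 peak, so its fold is no bound. UPF1 had 18.9 and 0 normalised reads in overexpression libraries, against 30.9 and 4.5 in control libraries.

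**Figure D4:**
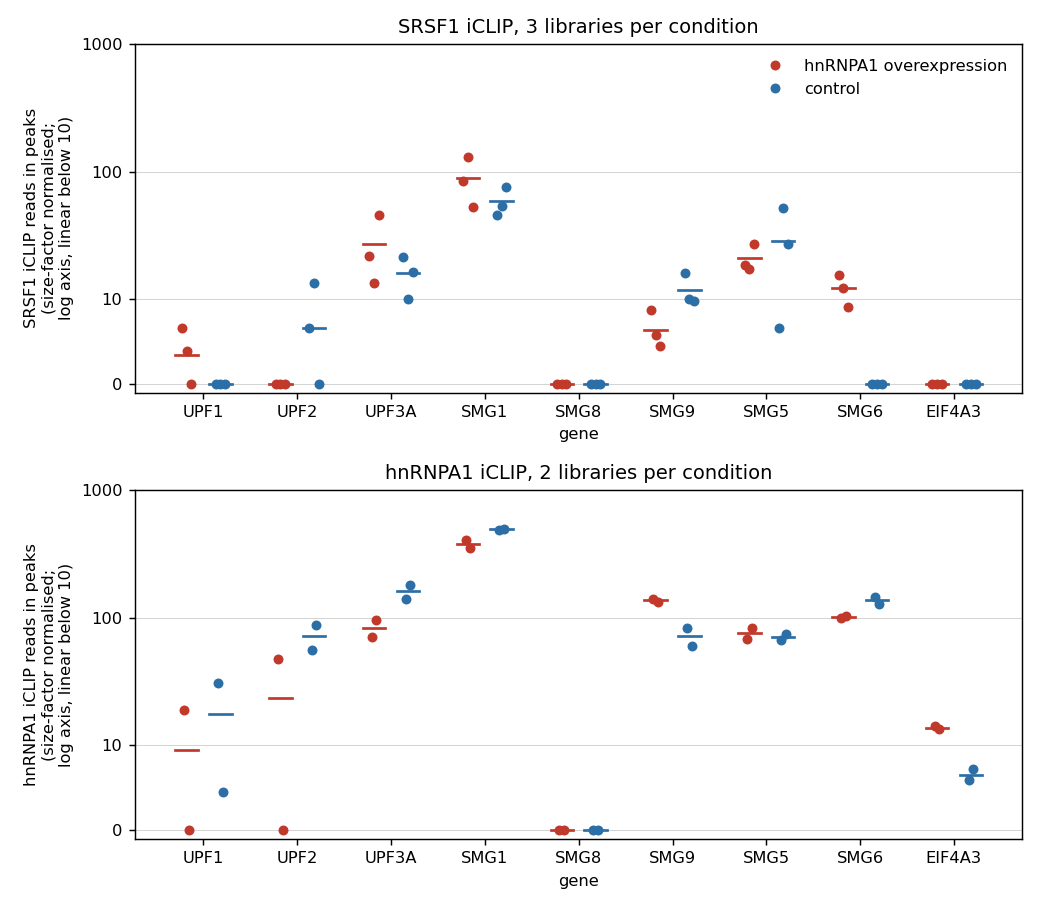
Normalised SRSF1 (upper panel, 3 libraries per condition) and hnRNPA1 (lower panel, 2 libraries per condition) reads in peaks on the 9 genes, on a log axis that is linear below 10. Points are libraries and bars are means. SMG6 has SRSF1 peaks in overexpression libraries alone, and SMG9 has more hnRNPA1 reads in both overexpression libraries than in either control library.

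At the level of sites, 68 of the 232 hnRNPA1 sites were seen in both control libraries, and 49 of them had no peak in the shallower overexpression libraries (72.1%, against 62.0% over all genes). Among 80 sites tested, 5 were called higher and 49 lower, in a background of 55.5% of 75148, with 8.35% higher and 47.2% lower. Most of these had no peak in 1 condition, and without control replicate 1 or without control replicate 2 the number called was 0. Of the 7 sites with a peak in all 4 libraries, 3 were called higher when tested among the 9684 such sites (58.9% called over all, 56.2% as higher). That filter keeps sites high enough to give a peak in both of the shallower overexpression libraries. The median log2 change was 0.99 over the 9684 sites, against -1.90 over all 75148, so these calls still depend on missing peaks. On SMG9, chr19:44240284-44240401 had 30 and 34 reads in overexpression libraries and 55 and 51 in the deeper control libraries (log2 change 1.68 ± 0.16, adjusted p = 0.00541 by limma). It was not called without control replicate 1 (adjusted p = 0.0969) or 2 (0.0839). On SMG1, chr16:18818482-18818612 had 37 and 28 reads in overexpression libraries and 94 and 78 in control libraries (log2 change 1.02 ± 0.23, adjusted p = 0.0454), and was not called without control replicate 1 (0.260) or 2 (0.279, all by limma). On SMG5, chr1:156244010-156244194, which overlaps the U2AF2 site found in control cells alone, had 6 and 14 reads in overexpression libraries and 16 and 23 in control libraries.

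Only 12 hnRNPA1 sites in the 9 genes were seen in both of the shallower overexpression libraries. Of these, 3 had no peak in either control library (25.0%, against 19.9% over all genes). They were chr16:18867330-18867402 on SMG1 with 8 and 17 reads, chr1:156220154-156220186 on SMG5 with 10 and 7, and chr17:2052740-2052772 on SMG6 with 6 and 6. The sites named by the size of a fall all lacked a peak in overexpression libraries. On SMG1 they were chr16:18816544-18816798, with 70 and 64 control reads, and chr16:18817026-18817136, with 35 and 38. On SMG5 they were chr1:156250723-156250918, with 39 and 16, and chr1:156247189-156247288, with 22 and 10. SMG6 had chr17:1965802-1965856, with 16 and 13, and chr17:2117180-2117286, with 10 and 10, beside its leading site chr17:2066866-2067057, which had 17 and 6 reads in overexpression libraries and 29 and 31 in control libraries. SMG9 had chr19:44241449-44241504, with 19 and 11, and chr19:44245946-44246003, with 16 and 12.

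Among the genes with few hnRNPA1 reads, UPF1 had chr19:18954954-18955075, with 13 and 10 control reads, and a single overexpression peak of 8 reads at chr19:18962225-18962308. UPF2 had chr10:12065332-12065390, with 11 and 7, chr10:12064908-12064945, with 12 and 6, and chr10:12025824-12025883, with 10 and 6, and a single overexpression peak of 8 reads at chr10:12048316-12048346. EIF4A3 had its leading hnRNPA1 site at chr17:78115910-78115988, with 0 and 6 reads in overexpression libraries and 0 and 8 in control libraries.

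The responses of the proteins were compared with each other in fits that held the libraries of both. The U2AF2 response minus the SRSF1 response was -2.49 ± 0.62 on the log2 scale for UPF3A (adjusted p = 0.0175 by limma) and -3.41 ± 0.74 for SMG6 (adjusted p = 0.00838). These were 2 of 5 genes, in a background of 17.9% of 5518, 4.98% as higher and 12.9% as lower. The UPF3A difference was -1.51 and not called with total reads as the scale. The SMG6 difference rests on an SRSF1 arm without control peaks, so its size is set by the pseudocount: it was -1.50 and not called at a pseudocount of 5 (adjusted p = 0.0520), and -0.74 and not called by number of peaks (0.348, both by limma). The U2AF2 response minus the hnRNPA1 response was -1.78 ± 0.32 for SMG9 (adjusted p = 0.00270) and -2.19 ± 0.73 for EIF4A3 (adjusted p = 0.0423), 2 of 8 genes in a background of 44.0% of 11500, 32.7% as higher and 11.4% as lower. With total reads as the scale these were -0.82 and -1.26, neither called, and SMG6 at 1.67 and SMG1 at 0.99 were called instead. On that scale 5143 of 11500 genes were called higher and 753 lower. The median of all genes was 2.89, above both SMG6 and SMG1. The SMG9 difference was not called without hnRNPA1 control replicate 2 (adjusted p = 0.0672), and the EIF4A3 difference not without any 1 overexpression library of either protein (adjusted p between 0.0569 and 0.106) or either hnRNPA1 control library (0.307 and 0.257, all by limma).

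**Figure D5:**
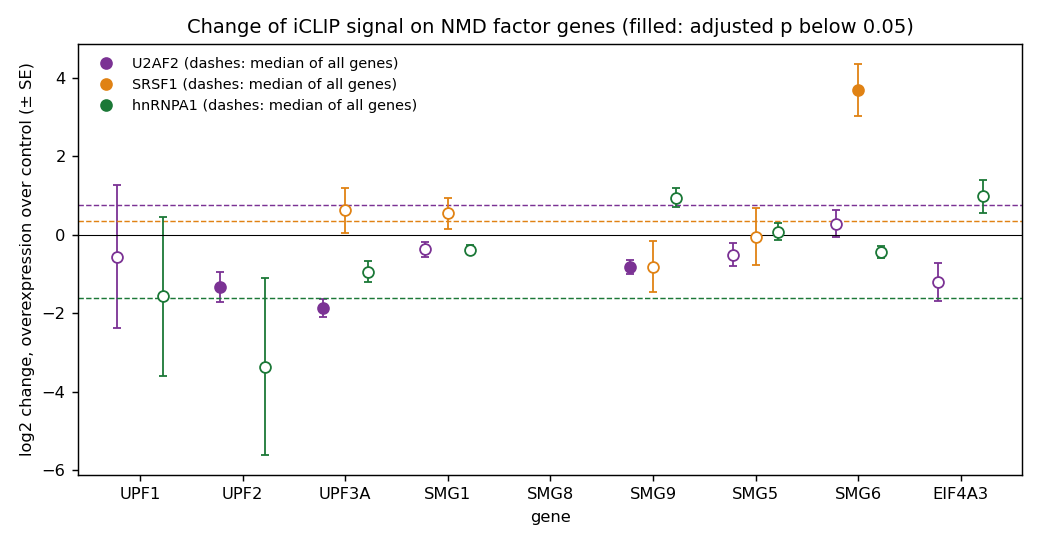
Fitted log2 change of iCLIP signal (overexpression over control, with SE) for each gene and protein. Filled points passed an adjusted p of 0.05 and dashed lines mark the median of all genes for each protein. Filled are UPF3A, UPF2 and SMG9 for U2AF2, all below 0, and SMG6 for SRSF1, while no hnRNPA1 point is filled.

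Another 27 genes of the same pathway, from the exon junction complex, decapping, translation termination and other steps of NMD, were also examined. RBM8A, GSPT2 and DCP1A had no matched peak. In U2AF2, 4 of 23 tested were lower and 1 higher, with a median log2 change of 0.15, against 16.0% lower, 27.5% higher and a median of 0.76 over all genes. PNN (pinin) and ACIN1 (acinus), which encode proteins peripheral to the exon junction complex, had log2 changes of -3.36 ± 0.21 (adjusted p = 0.000205) and -1.94 ± 0.22 (adjusted p = 0.000911, both by limma). PNN had 43.5 ± 6.5 normalised reads in overexpression cells, against 460.9 ± 99.9 in control cells (SD, n = 3 each). ACIN1 had 227.7 ± 36.3 in overexpression cells, against 889.4 ± 204.2 in control cells.

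RUVBL1, an ATPase that acts with SMG1, was at -1.80 ± 0.50 (adjusted p = 0.0320), and CASC3, a core protein of the exon junction complex, at -1.19 ± 0.29 (adjusted p = 0.0198, both by limma). Neither passed with total reads as the scale. CASC3 was not called without overexpression replicate 1 (adjusted p = 0.0540) or 2 (0.0768). RUVBL1 was not called without control replicate 1 (0.0587) or overexpression replicate 1 (0.0820), 2 (0.0906) or 3 (0.0815, all by limma). RUVBL2, its partner, had no U2AF2 peak in control libraries and 14.9 ± 0.7 normalised reads in overexpression libraries. It was the 1 gene called higher, and it entered the test only through overexpression libraries, so that its call is largely fixed by the filter. In SRSF1, 0 of 14 of these genes were called by limma, with 3 at an unadjusted p under 0.05, against 8.32% called over all genes.

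In hnRNPA1, 2 of 21 were higher and 2 lower, against 4.31% higher and 34.1% lower over all genes. PNN was higher at 1.21 ± 0.14 (adjusted p = 0.00947) and ACIN1 lower at -1.50 ± 0.18 (adjusted p = 0.0100, both by limma). PPP2CA, the catalytic subunit of the phosphatase that acts on UPF1, was at 0.99 ± 0.19 (adjusted p = 0.0340), and the cap-binding gene NCBP2 at -3.19 ± 0.59 (adjusted p = 0.0304). ACIN1 was not called without control replicate 1 (adjusted p = 0.107) or 2 (0.131), nor PPP2CA without either (0.177 and 0.274) or with total reads as the scale (0.0535). PNN was not called with quantile normalization (adjusted p = 0.0602) or by number of peaks (0.0539, all by limma), ACIN1 was not with quantile normalization (0.0557), and NCBP2 was not at a pseudocount of 5 (0.0750). NCBP2 had no peak in overexpression libraries and entered the test only through control libraries. Its call is therefore largely fixed by the filter, and its fitted change is no bound. For PNN the U2AF2 response minus the hnRNPA1 response was -4.57 on the log2 scale (adjusted p = 1.45e-05 by limma).

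The deposited exon-skipping table, made from the 2 overexpression and 2 control libraries of polyadenylated RNA, listed 251 events. The authors' limits, 0.33 for the difference in inclusion and 5 for the Bayes factor, were passed together in at least 1 of 4 library pairs by each of the 251 and in all 4 pairs by 2. Titles of these libraries name the line HEK293 TREX FLP-In. Of these, 0 overlapped the span of peaks of any of the 9 NMD genes. Among the 24 related genes with a peak, ACIN1 and PYM1 had 1 event each within their spans, neither past the limits in all 4 pairs. The table holds selected events, so smaller changes in exons of UPF3A, SMG9 or the others were not analysed here.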

How the data were processed

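In each iCLIP library the authors called peaks with CLIPper after TopHat mapping and a repeat filter, per the file headers. The submitters' processing notes name Bowtie2, TopHat and hg19. Each deposited peak name ends in a count of its reads, and each peak has a deposited value taken as its p-value from its range, which was not used to test conditions. The deposited exon table gives inclusion as a fraction and a Bayes factor, a ratio, for each of 4 pairs of libraries. Peak calling with a minimum leaves out weak contacts, which bears most on shallow libraries.

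Reads in peaks were summed by gene, with 17814 of 19362 identifiers (92.0%) matched to a symbol. They were scaled within each protein by median of ratios and tested as log2(normalised reads + 1) with limma 3.58.1 in R 4.3.3 (two-sided, trend), for genes or sites that had peaks in 50% or more of a protein's libraries. Adjustment was by Benjamini-Hochberg over all features tested, with a threshold of 0.05. Sites used the size factors of the gene fit. The added 1 shrinks the fold changes of weak genes with peaks in both conditions. Where 1 condition lists no peak, the fitted change depends on the pseudocount and is no bound. Named sites are the one with most reads for each gene and protein and up to 3 called ones by size of change, beside sites stated as chosen afterwards. The genes and lists were chosen with earlier results of these data known, and 1 listed gene is not reported here. Same-numbered libraries did not deviate together (correlations -0.02 to 0.05), so no pairing was used. Alternatives covered scaling, pseudocount, filters, peak minimum, overlap, number of peaks, a replicate block and each library left out.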

Additional observations from a re-analysis of the deposited data

Results flagged for a closer look

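For 4 results, the response of U2AF2 differed from that of another protein on the same gene, by the interaction test over all genes. For SMG6 the U2AF2 response minus the SRSF1 response was -3.41 on the log2 scale, but SRSF1 had no peak in control libraries, so the size is set by the pseudocount and was -1.50, not called, at a pseudocount of 5. For UPF3A the same difference was -2.49. For SMG9 the U2AF2 response minus the hnRNPA1 response was -1.78, and for EIF4A3 it was -2.19. EIF4A3 rested on 1 peak of 6 reads in each hnRNPA1 overexpression library.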

How the results depend on the processing

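Called genes in U2AF2 numbered 3, and 1 by number of peaks or with the replicate block, with 1 to 4 when a library was left out. With peaks of at least 12 reads 1 of 7 was called lower and 1 higher, against 1473 lower and 4259 higher of 9773 genes. The higher one was SMG6 (4.82), which kept no such peak in control libraries 1 and 2. The block, whose numbers do not pair the libraries, kept UPF3A (adjusted p = 0.00806) and not UPF2 (0.0833) or SMG9 (0.0702, limma). Called U2AF2 sites numbered 60, then 3 with a peak in every library and 26 with peaks of at least 12 reads, both of which leave fewer to test, and 10 to 58 without 1 library. In SRSF1, 1 called gene became 0 under quantile normalization, a pseudocount of 5, no filter, a peak in every library or the block, and 0 to 1 without 1 library. With peaks of at least 12 reads the 1 called gene was UPF3A (4.21), not SMG6, and UPF3A then had no control peak. The 1 called SRSF1 site became 0 with a peak in every library, with peaks of at least 12 reads, and without any 1 library. In hnRNPA1, 0 called genes became 1 of 8 with total reads and 3 of 6 with peaks of at least 12 reads, all lower. UPF2, among the 3, had no overexpression peak of that size, so its call is largely fixed by the filter. In hnRNPA1 over all genes, 4391 of 12461 were called lower with total reads, and 5817 of 9334 with peaks of at least 12 reads. Its 54 called sites became 3 with a peak in every library, and 0 to 59 without 1 library. Of 2 genes with unlike U2AF2 and SRSF1 responses, 1 stayed called with total reads, a pseudocount of 5 or a peak in every library, 0 by number of peaks, and 1 to 2 without 1 library. Of 2 with unlike U2AF2 and hnRNPA1 responses, 1 was called with the block, and 1 without any 1 U2AF2 overexpression library. By number of peaks neither SMG9 (-0.16, adjusted p = 0.813) nor EIF4A3 (-0.35, 0.673) was called. SMG6 was called there instead, in the other direction, at 1.63 (0.0331, all by limma). By that measure 2275 of 11500 genes were called higher and 441 lower, with a median of 0.86.

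The following log2 changes turned sign, and the cause was not tested. In U2AF2 by number of peaks these were UPF1 (0.072), SMG1 (0.45), SMG9 (0.27), SMG5 (0.22), CASC3 (0.089) and ACIN1 (0.042). With peaks of at least 12 reads they were UPF2 (0.69), SMG9 (0.18) and SMG5 (2.93). SMG1 turned with total reads (0.44) and quantile normalization (0.34), and SMG5 with total reads (0.29). Without 1 library UPF1 ran from -2.30 to 0.74, SMG6 from -0.037 to 0.54 and the SMG6 site at 2072350 from -1.34 to 0.84, with -0.22 at a pseudocount of 5. In SRSF1, UPF3A (-0.24) and SMG5 (0.13) turned by number of peaks, and SMG5 with quantile normalization (0.12) and from -0.84 to 0.54 without 1 library. The SMG1 site at 18879854 was -0.38 with peaks of at least 12 reads and -0.35 to 1.73 without 1 library. In hnRNPA1, UPF1 (0.40) and NCBP2 (0.11) turned with quantile normalization, and SMG5 with total reads (-0.086). With peaks of at least 12 reads SMG5 (-5.54), PPP2CA (-0.59) and the SMG6 site at 2066866 (-0.84) turned. Without 1 library UPF1 ran from -4.10 to 0.63, SMG5 from -0.027 to 0.29, the EIF4A3 site at 78115910 from -0.17 to 3.03 and the UPF3A site at 115051072 from -1.11 to 0.59. Shallow libraries and the peak minimum limit what SRSF1 and hnRNPA1 overexpression libraries can show.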
